A study of Mus musculus with 4 samples.

Results

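The proteasome genes of mouse Th17 cells are described here, in cells that carried a CRISPR guide against Adarb1 and in cells that carried none. ADAR2, the product of Adarb1, deaminates adenosines in double-stranded RNA to inosine, and the study calls its guide-bearing cells a knockdown. The proteasome genes were taken as the protein-coding genes of GENCODE mouse release M21 whose symbol starts with Psm, a letter from a to g and a digit. That gave 50 of the 55450 genes in the authors' deposited table. A mean normalized count of at least 10 was reached by 48 of them, and the other two, Psma8 and Psmb11, are given apart. The symbol pattern also caught Psmc3ip, which encodes the meiotic recombination cofactor HOP2 and no proteasome part.

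The sgAdarb1 group consisted of 2 cultures transduced with the PSIN retroviral vector carrying the guide, and the empty vector group of 2 cultures transduced with PSIN without a guide. All 4 cultures were primary CD4 T cells with a Cas9 transgene, from mice aged 8 to 12 weeks that the design text calls wildtype. Activation was with anti-CD3ε (0.25 µg/mL) and anti-CD28 (1 µg/mL), transduction followed 24 h later, and IL-6 (20 ng/mL) with TGF-β (0.3 ng/mL) then drove Th17 polarization for 72 h. Each of 2 donor mice gave a culture to both groups, per the series' design text. The mouse strain and the promoter of the Cas9 transgene were not given in the sources used here, and the empty vector leaves effects of a Cas9 cut itself uncontrolled. Groups follow the sample titles, although the treatment tag contradicts the title of 2 samples. Signs are read as sgAdarb1 over empty vector, since the table leaves its numerator unnamed, and all of them would turn in the opposite order. If the authors grouped libraries by the tag, the fold changes would not set guide against vector. Adarb1 mRNA stood at 0.11 ± 0.12 (log2 fold change ± SE) in the authors' deposited table, which does not check the labels, because a Cas9 cut need not lower the mRNA.

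The proteasome degrades proteins that carry ubiquitin chains. Its barrel-shaped core particle (called 20S) has outer alpha rings that gate the entrance and inner beta rings that hold the protease sites, and the regulatory particle (called 19S) binds, unfolds and deubiquitinates substrates. Lymphocytes also make the immunoproteasome, in which the interferon-inducible subunits encoded by Psmb8, Psmb9 and Psmb10 take the places of those encoded by Psmb5, Psmb6 and Psmb7 and shift the peptides cut for MHC class I. Dedicated chaperones assemble both particles, and alternative caps such as PA28 and PA200 bind the core in place of the regulatory particle.

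The 4 promoter stretches below belong to the constitutive and inducible partners at the chymotrypsin-like and caspase-like sites, the pairs whose levels are compared further on. Each is the 120 bases before the RefSeq start site on build GRCm38.p6, 5′ to 3′ on the gene's strand. Psmb5 lies at chr14:54617996-54618115 on the minus strand and Psmb6 at chr11:70525237-70525356 on the plus strand. The stretch of Psmb8 lies at chr17:34198075-34198194 on the plus strand and that of Psmb9 at chr17:34187331-34187450 on the minus strand. Both lie inside the GENCODE genes (34197721 to 34201454 and 34181987 to 34187764), downstream of those genes' 5′ ends. Capitals mark a match to the core of the antioxidant response element, TGACNNNGC, in Psmb5 and Psmb6, and a match to the interferon-gamma activated sequence, TTCNNNGAA, in Psmb8. Psmb9 has no match to either of them, or to the interferon response element (GAAA, any 2 bases, then GAAA again), in this stretch.
Psmb5: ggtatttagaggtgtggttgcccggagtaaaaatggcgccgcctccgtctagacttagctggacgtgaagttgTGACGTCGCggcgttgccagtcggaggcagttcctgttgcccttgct
Psmb6: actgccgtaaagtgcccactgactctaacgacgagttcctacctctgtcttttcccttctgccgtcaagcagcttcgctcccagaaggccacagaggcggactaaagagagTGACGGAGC
Psmb8: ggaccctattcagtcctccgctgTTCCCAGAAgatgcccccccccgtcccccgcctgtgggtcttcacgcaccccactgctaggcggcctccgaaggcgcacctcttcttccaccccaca
Psmb9: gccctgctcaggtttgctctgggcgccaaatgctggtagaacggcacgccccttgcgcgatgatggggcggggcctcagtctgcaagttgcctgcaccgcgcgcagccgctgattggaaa

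No proteasome gene passed the test between sgAdarb1 and empty vector cells. In the authors' deposited table (DESeq2, Wald test with Benjamini-Hochberg adjustment over 29383 genes), 0 of 50 members had an adjusted p below 0.05, against 0% of all genes, and 0 of 50 had an unadjusted p below 0.05, against 0.208%. Among genes with a mean of at least 10 that unadjusted share was 0.412%, against 0 of 48 members. Both shares lie far below the share of 0.05 that uniform p-values would give. The SD of fold change over SE was 0.585 over the 14547 genes with such a mean. The deposited test was thus conservative in these data, and the absence of members below a threshold carries little weight. Among the 48 members with a mean of at least 10, log2 fold changes ran from -0.14 to 0.24 in the authors' deposited table. Their median was -0.01, and that of all 14547 genes with such a mean was 0.00. Positive values were held by 23 of the 48, or 47.9%, against 50.5% of all those genes, and at a mean of at least 1000 by 16 of 37, against 49.2% of protein-coding genes. With a trend on GC content and length removed, 19 of 48 were positive, against 49.4%. In the plot of fold changes every interval includes 0.

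**Figure D1:**
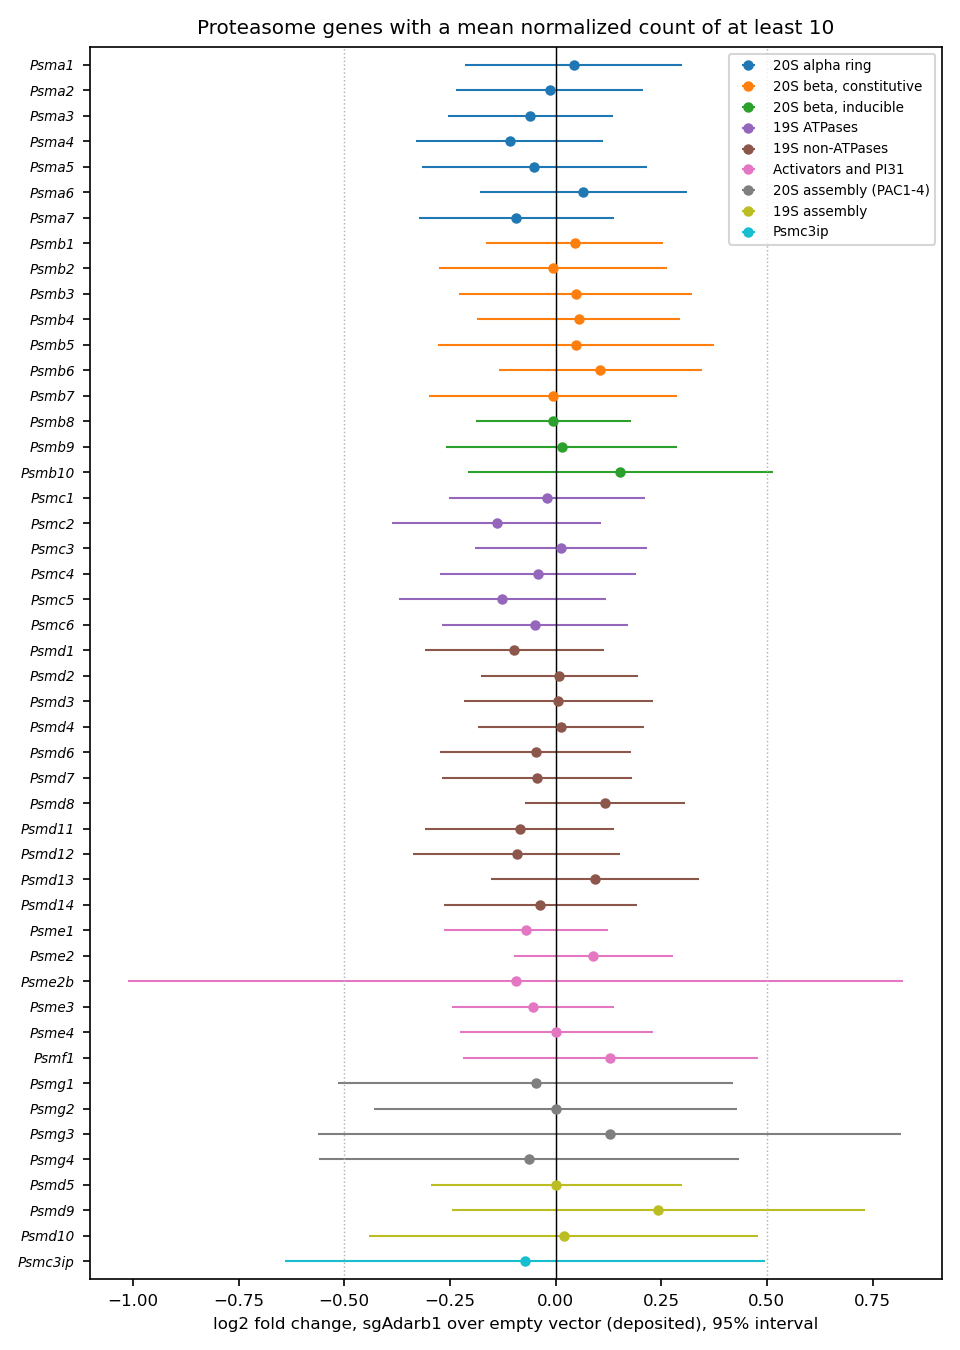
Log2 fold change of each of the 48 proteasome genes with a mean normalized count of at least 10, sgAdarb1 over empty vector (x axis, log2 units), from the authors' deposited table. Points are the deposited values, bars their 95% intervals, colours the classes, and dotted lines mark 0.5 log2 units on either side of 0. All 48 intervals cross 0, and 41 lie between the dotted lines.

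The precision was high enough to bound most of the differences. The 95% interval, from the deposited SE under a normal distribution, lay within 0.5 log2 units of 0 (a ratio of 1.41) for 41 of the 48 members, against 58.5% of the 9034 protein-coding genes in the same range of means. Among the 37 members with a mean of at least 1000, 37 had such an interval, against 98% of 3635 protein-coding genes at that level. The exceptions were Psmb10, Psme2b, Psmg1, Psmg3, Psmg4, Psmd9 and Psmc3ip, whose means were between 85.2 and 636 normalized counts. These bounds rest on the deposited SE alone, from 2 cultures a group. Values per library were not used, because the 4 columns that hold them have names that match no sample label.

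The deposited SE of each member sat close to that of other genes of its level. Its ratio to the running median SE over the genes nearest in mean had a median of 0.99 and ran from 0.978 to 1.10 over the 48 members. The ratio was highest for Psma4 (1.10) and Psma6 (1.08). Wald statistics, the fold change over its SE, had an SD of 0.563 over the 48 members and of 0.592 over the 8986 other protein-coding genes in the same range of means. Those sets differ in level, with median means of 2094 and 644 normalized counts. At a mean of at least 1000 the SD was 0.574 over 37 members and 0.731 over 3598 other protein-coding genes, so the members spread less. The median absolute log2 fold change was 0.05 in the 37 members with a mean of at least 1000 and 0.06 in the 3598 other protein-coding genes at that level.

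**Figure D2:**
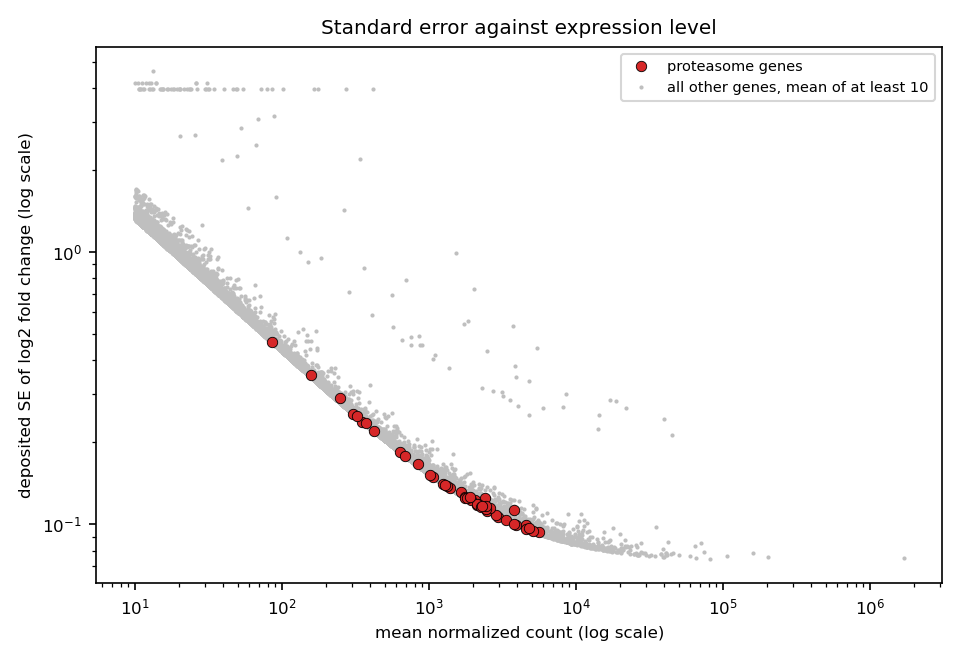
Deposited standard error of the log2 fold change (y axis, log scale) against mean normalized count (x axis, log scale) for the 48 proteasome genes (red) and all other genes with a mean of at least 10 (grey). The red points lie in the dense part of the grey band, with SE from 0.0935 for Psmb8 to 0.468 for Psme2b.

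In the authors' deposited table the alpha ring genes, Psma1 to Psma7, had means from 1393 to 3913 normalized counts. Among these 7 genes, 2 were positive and 5 negative, with a median log2 fold change of -0.05, and after removal of the GC and length trend 3 were positive. At the ends were Psma4 at -0.11 ± 0.11 (95% interval -0.33 to 0.11, unadjusted p = 0.334) and Psma6 at 0.07 ± 0.12 (-0.18 to 0.31) in the authors' deposited table. Psma4 lies on chromosome 9, 54950790 to 54958030, and Psma6 on chromosome 12, 55384222 to 55418454 (mm10). Psma7 stood at -0.09 ± 0.12 and Psma3, the member of this ring with the highest mean, at -0.06 ± 0.10 in the authors' deposited table. All 7 intervals include 0.

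The constitutive beta subunits, encoded by Psmb1 to Psmb7, were positive in 5 of 7, with a median of 0.05, and in 5 of 7 with the trend removed as well. Psmb6, which carries the caspase-like site, had the highest Wald statistic of them at 0.11 ± 0.12 (-0.13 to 0.35, unadjusted p = 0.387) in the authors' deposited table. Psmb5, which carries the chymotrypsin-like site, stood at 0.05 ± 0.17, and Psmb7, which carries the trypsin-like site, at -0.01 ± 0.15 in the authors' deposited table. The signs of Psmb5 and Psmb7 both turned with the trend removed, to -0.02 and 0.04. Psmb2 had the lowest Wald statistic of this class at -0.01 ± 0.14 in the authors' deposited table. The 7 intervals lay between -0.30 and 0.37.

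The inducible subunits did not pass either. In the authors' deposited table Psmb8 (chromosome 17, 34197721 to 34201454) stood at -0.01 ± 0.09 (95% interval -0.19 to 0.18) with a mean of 5568 normalized counts, the highest of the 50 members. As a ratio that interval runs from 0.877 to 1.13. Psmb9, in the same MHC region (34181987 to 34187764), stood at 0.01 ± 0.14 (mean 1283) in the authors' deposited table, and Psmb10 (chromosome 8, 105935735 to 105938444) at 0.15 ± 0.18 (mean 636). The sign of Psmb9 turned to -0.01 with the trend removed. Differences between partners, in log2 fold change with the SEs combined as if the genes were independent, were -0.05 for Psmb8 minus Psmb5 (95% interval -0.43 to 0.32), -0.09 for Psmb9 minus Psmb6 (-0.46 to 0.27) and 0.16 for Psmb10 minus Psmb7 (-0.31 to 0.62). No shift between inducible and constitutive partners was detectable at this precision.

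**Figure D3:**
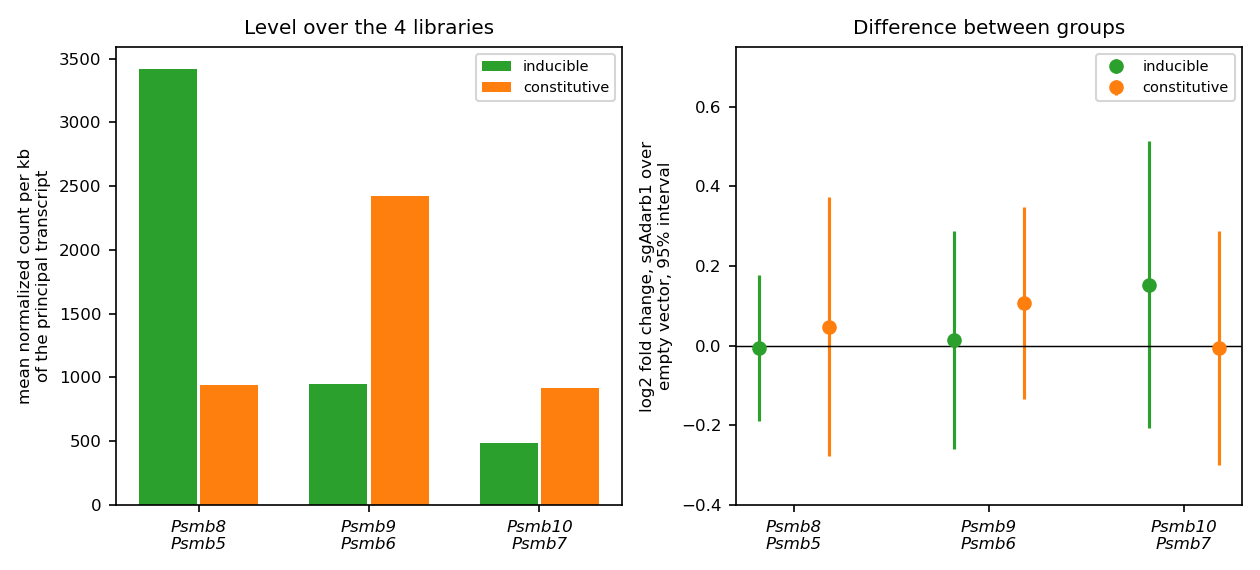
The 3 catalytic sites of the core particle, each with its inducible subunit (green) and its constitutive one (orange). Left, level as mean normalized count per kilobase of the principal transcript over the 4 libraries; right, log2 fold change, sgAdarb1 over empty vector, with 95% intervals. Psmb8 has 3420 per kilobase and Psmb5 939, while all 6 intervals on the right cross 0.

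In bulk RNA, fewer cells of a type and less RNA per cell cannot be told apart, and the levels that follow are means over the libraries of both groups. They are given per kilobase, first of all annotated exons and then of the APPRIS principal transcript, because the annotated exons of most members add up to more than the principal transcript. Psmb8 exceeded Psmb5 on both scales, by 1.75-fold (1647 and 939 normalized counts per exon kilobase) and by 3.64-fold per kilobase of principal transcript. Psmb9 lay below Psmb6 on both, at ratios of 0.34 and 0.392. For Psmb10 and Psmb7 the order turned with the length used, at ratios of 1.20 and 0.529. Spread between libraries was not used for these levels, so no test stands behind their order.

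Per exon kilobase the highest means were those of Psme2 (2596), Psme1 (2056) and Psma6 (1955), and the lowest of the 48 were those of Psme2b (102), Psmg3 (54.6) and Psmd9 (44.7). The 14 constitutive core genes had a median of 972 normalized counts per exon kilobase (311 to 1955) and the 17 regulatory particle genes one of 873 (347 to 1522). The 7 assembly genes had a median of 243 (44.7 to 553) and the 11905 other protein-coding genes with a mean of at least 10 one of 98.6. Per kilobase of principal transcript, all 7 assembly genes (125 to 553) lay below all 31 constitutive core and regulatory particle genes, whose lowest value was 857, that of Psma2. Per exon kilobase the ranges overlapped. Pomp, a maturation factor of the core particle outside the symbol pattern, is not among these 7 assembly genes. Its mean was 2263 normalized counts, or 434 per exon kilobase, and its level per kilobase of principal transcript was not analysed. The 50 members together took 0.662% of the normalized counts of protein-coding genes, and 0.927% of those per exon kilobase.

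**Figure D4:**
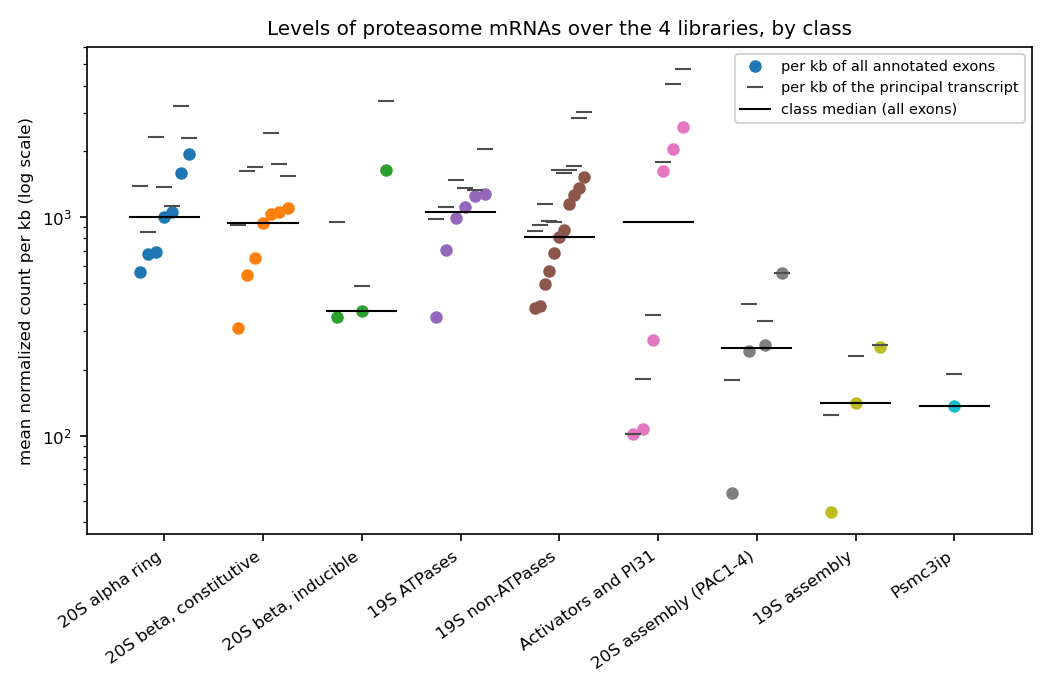
Mean normalized count per kilobase over the 4 libraries (y axis, log scale) for the 48 proteasome genes by class (x axis). Dots use all annotated exons, dashes the principal transcript, and black lines are class medians of the dots. Psme2, Psme1 and Psmb8 have the 3 highest dashes, and the assembly genes lie low in the plot.

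The regulatory particle's base contains the ATPases that unfold substrates, encoded by Psmc1 to Psmc6. In this class 1 was positive and 5 negative, with a median log2 fold change of -0.04, and 1 of 6 was positive with the trend removed, though not the same gene. Psmc2 (chromosome 5, 21785283 to 21803787) had the lowest Wald statistic of the 48 members at -0.14 ± 0.13 (95% interval -0.39 to 0.11, unadjusted p = 0.267) in the authors' deposited table. Psmc5 stood at -0.13 ± 0.13 and Psmc3, the positive one, at 0.01 ± 0.10 in the authors' deposited table. Psmc3 turned to -0.03 with the trend removed, where Psmc6 stood at 0.01. The 6 members all had means between 1747 and 3341 normalized counts.

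The non-ATPase subunits of the regulatory particle were positive in 5 of 11, with a median of -0.04, and in 2 of 11 with the trend removed. Psmd8 (chromosome 7, 29174188 to 29180701), a lid subunit, had the largest Wald statistic of all members at 1.22. The authors' deposited table gave it a log2 fold change of 0.12 ± 0.10 (-0.07 to 0.31), with an unadjusted p of 0.223, the smallest among the 50 members, and an adjusted p of 1.00. Psmd1, a scaffold of the base, stood at -0.10 ± 0.11, and Psmd2, the other scaffold, at 0.01 ± 0.09 in the authors' deposited table. Psmd4, a ubiquitin receptor, was at 0.01 ± 0.10 and Psmd14, the deubiquitinase of the lid, at -0.04 ± 0.12 in the authors' deposited table. The other 6 members, lid subunits among them, ranged from -0.09 (Psmd12) to 0.09 (Psmd13).

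Among the alternative caps, neighbouring genes of 1 complex had opposite signs, neither of them past the test. Psme1 and Psme2 encode the interferon-inducible PA28 alpha and beta chains, which assemble into 1 ring, and lie on chromosome 14 at 55578123 to 55581529 and 55587441 to 55591113. In the authors' deposited table Psme1 stood at -0.07 ± 0.10 (mean 4542) and Psme2 at 0.09 ± 0.10 (mean 4580). The difference, Psme2 minus Psme1, was 0.16 with a 95% interval from -0.11 to 0.43 under independence of the SEs. Psme3, the nuclear PA28 gamma, stood at -0.05 ± 0.10 and Psme4, which encodes PA200, at 0.00 ± 0.12 in the authors' deposited table. The sign of Psme4 turned when the median of all genes was subtracted, to -0.00012. Psmf1, which encodes the proteasome inhibitor PI31, was at 0.13 ± 0.18 in the authors' deposited table.

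Psme2b needs a separate reading. This gene on chromosome 11 matches the longest Psme2 transcript at 99.4% identity over 794 bases, and its mean of 85.2 was 1.86% of that of Psme2. It stood at -0.09 ± 0.47 in the authors' deposited table. How reads that match both were counted was not given in the sources used here, so the values of Psme2b are uncertain.

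Among the 7 assembly genes, 6 had means below 1000 normalized counts, and their intervals were wide. Psmg1 to Psmg4 encode the chaperones PAC1 to PAC4 of the core particle, and they stood at -0.05 ± 0.24, 0.00 ± 0.22, 0.13 ± 0.35 and -0.06 ± 0.25 in the authors' deposited table. The sign of Psmg2 turned to -0.0013 when the median of all genes was subtracted and to -0.01 with the trend removed. Among the chaperones of the regulatory particle's base, Psmd5 stood at 0.00 ± 0.15, Psmd10 (gankyrin) at 0.02 ± 0.23 and Psmd9 at 0.24 ± 0.25 in the authors' deposited table. Psmd9 (chromosome 5, 123169413 to 123250131) had the largest fold change of the 48, and its 95% interval ran from -0.24 to 0.73 (unadjusted p = 0.328 in the authors' deposited table). Exons of Gm26745 on the opposite strand, listed at 0, overlap 25.5% of its exons. In this class of 3, all were positive with the trend removed as well. Psmc3ip, which is unrelated to assembly, stood at -0.07 ± 0.29 (mean 247) in the authors' deposited table.

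In the authors' deposited table Psma8, a spermatogenesis-specific alpha subunit, and Psmb11, the catalytic subunit of the thymus cortex, had means of 4.37 and 1.03 normalized counts. Their SEs were 1.98 and 4.46, and their 95% intervals spanned -3.96 to 3.82 and -7.89 to 9.60, too wide to bound a difference. The germ cell gene Sycp1 and the thymic epithelial genes Foxn1 and Krt5 were listed at 0 in the authors' deposited table, and the 4 markers of each of these cell types summed to 17.3 and 42.3 normalized counts for germ cells and thymic epithelium. Most of these sums came from Ddx4 (mean 13.3) for germ cells and Epcam (mean 42.0) for thymic epithelium. The T cell genes Cd4, Cd3e and Trac had means of 15286, 5150 and 4682.

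Log2 fold changes were higher in GC-richer genes, among the members and across other genes. Across the 48 members Pearson's r between GC content of the longest transcript and log2 fold change was 0.273 (Spearman's rho 0.277), and across the 3635 protein-coding genes with a mean of at least 1000 it was 0.403 (rho 0.423). These points are genes of the same libraries and are given as a description. Removal of the trend left 8 of the 14 constitutive core genes positive, against 7 before, and 3 of the 17 regulatory particle genes, against 6 before. The medians were 0.02 and -0.03 with the trend removed, against 0.02 and -0.04 as deposited, so the classes stayed within 0.1 log2 units of each other. What part GC content has in the split was not tested.

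**Figure D5:**
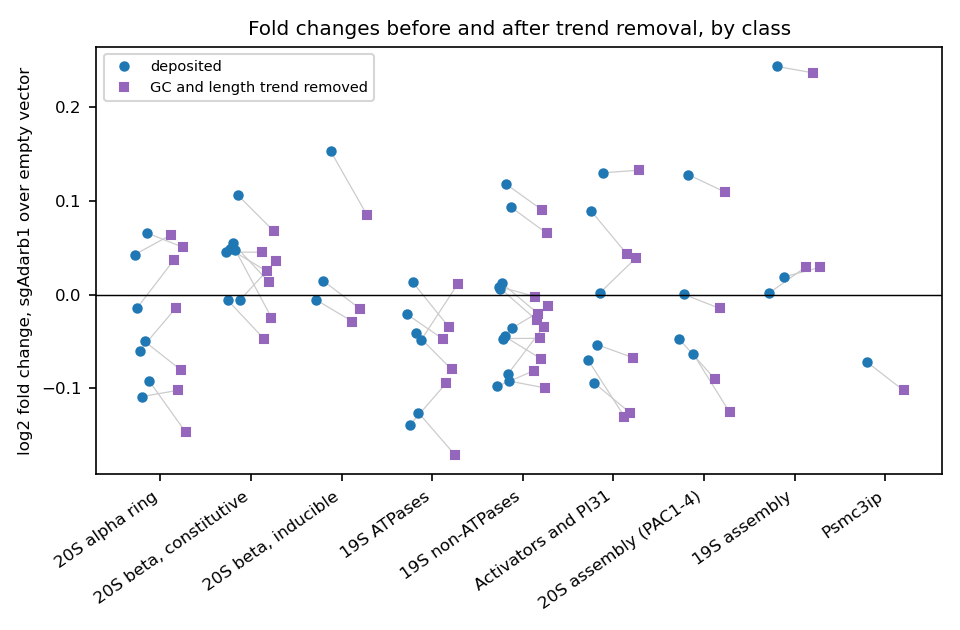
Log2 fold change, sgAdarb1 over empty vector (y axis), of the 48 proteasome genes by class, as deposited (blue circles) and after removal of the GC and length trend (purple squares), joined per gene. The regulatory particle's 17 genes have 6 circles and 3 squares above 0, and the largest value on either side of the join is that of Psmd9.

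Genes of the surrounding pathways were also read from the table. In 6 lists of 43 genes, which covered accessory factors, regulators of proteasome genes, ubiquitin shuttles, the p97 machinery, ubiquitin with its E1 enzymes, and MHC class I processing, 41 were tested, 20 positive and 21 negative. The authors' deposited table (DESeq2) gave 0 of 41 an adjusted p under 0.05, against 0% of all genes, and 0 of 41 an unadjusted one under it, against 0.412% of genes with a mean of at least 10, so these counts are near the background. Among 9 accessory factors the ends by Wald statistic were Ecpas, an adaptor of the proteasome, at -0.08 ± 0.10 and Sem1, a small lid subunit, at 0.07 ± 0.11 in the authors' deposited table. Pomp, the maturation factor of the core particle, was at 0.07 ± 0.12 (mean 2263) in the authors' deposited table. Nfe2l1, the transcription factor that raises proteasome genes when activity fails, stood at 0.05 ± 0.11, its relative Nfe2l2 at 0.15 ± 0.17, and Ddi2, the protease that activates NFE2L1, at -0.10 ± 0.15 in the authors' deposited table.

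Among the ubiquitin shuttles, Rad23b had the lowest Wald statistic, at -0.08 ± 0.10 in the authors' deposited table. In the p97 list Vcp, the segregase itself, stood at 0.02 ± 0.09 and its cofactor Nsfl1c at -0.07 ± 0.13 in the authors' deposited table. Among the ubiquitin and E1 genes 5 of 6 were positive, from Uba6 at -0.06 ± 0.14 to Ubb at 0.09 ± 0.09 by Wald statistic in the authors' deposited table, and Uba6 turned to 0.0038 with the trend removed. In the MHC class I list, Tap1, the peptide transporter gene that overlaps exons of Psmb9 on the opposite strand, was at 0.05 ± 0.09 (mean 5446) in the authors' deposited table. The ends of that list by Wald statistic were Erap1 at -0.07 ± 0.12 and Tapbp at 0.07 ± 0.09 in the authors' deposited table. Irf1, a transcription factor of the interferon-gamma response, stood at -0.04 ± 0.14 in the authors' deposited table.

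Markers of other cell types that also use the immunoproteasome had low means. The 9 myeloid and dendritic markers summed to 0.499% of the normalized counts of the T cell and Th17 markers, with Siglech listed at 0, and 6 of the 7 tested were positive, with a median log2 fold change of 0.50 and the ends by Wald statistic Flt3 at -0.68 ± 0.96 and Csf1r at 1.35 ± 1.32 in the authors' deposited table. The 5 B cell markers summed to 1214, with 2 positive and 3 negative, by Wald statistic from Cd79a at -0.13 ± 0.51 to Cd79b at 0.43 ± 1.00 in the authors' deposited table. The 9 T cell and Th17 markers summed to 40106, with 8 positive and 1 negative, and by Wald statistic they ran from Ccr6 at -0.19 ± 0.49 to Il17a at 0.70 ± 0.15 in the authors' deposited table. Among them, 2 of 9 had an unadjusted p below 0.05 and 0 of 9 an adjusted one (DESeq2). For Il17a, a Th17 cytokine gene, the authors' deposited table gives p = 2.90e-06 unadjusted and p = 0.0709 adjusted, below 0.1 but not 0.05. Il17f, its relative, stood at 1.11 ± 0.53 (unadjusted p = 0.0383, adjusted p = 1.00) in the authors' deposited table. The part of other cell types, or of the Th17 cytokine genes' differences, in the proteasome values was not tested.

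Several members share exons or sequence with other genes. Annotated exons of 15 members overlap those of another gene, on the opposite strand for 12. By share of the member's exons, overlaps with a gene counted at a mean of at least 10 were widest for Psmc3ip with Mlx (21.2%), Psmb7 with Nek6 (11.8%) and Psmd13 with Sirt3 (10.1%). The strand setting of the counting was not given in the sources used here, so these overlaps may raise or lower the members' values. For 13 members a BLAST search found 19 pseudogenes at 90% identity or more. Among these, 2 had a mean of at least 10: Gm13835, a copy of Psma3, at 40.6, or 1.04% of the parent's mean, and Gm6542, a copy of Psma4, at 26.8.

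The promoter letters were looked for on both strands in the RefSeq windows of 300 bases, 250 before the start and 50 after it, and 42 of the 50 members had 45 such windows. The antioxidant response core TGACNNNGC was found in 13.3% of them, in 12.4% of all 32851 windows and in 14.2% of the 12699 windows of genes with a mean of at least 10. Its 6 genes were Psmb5, Psmb6, Psmc6, Psmd12, Psme4 and Psmd9, with 4 positive fold changes of 6 and a median of 0.02, where the 35 other members with a window and a mean of at least 10 had 15 positive and a median of -0.02. The interferon response letters, GAAA on both sides of 2 bases of any kind, were in 11.1% of members' windows, 3.44% of all and 3.19% at a mean of at least 10. The members with them were Psmb3, Psmd4, Psme1, Psmg4 and Psmd9. Positive fold changes were held by 3 of these 5 genes. The letters TTCNNNGAA were in 6.67% of members' windows, 8.3% of all and 6.85% at a mean of at least 10, and the members with them were Psmb8, Psmd2 and Psmg1. RefSeq and GENCODE starts differ for some members, and the windows with matches of Psmb8 and Psmd9 lie inside their GENCODE genes. A match is not a binding site, and no match says nothing of a factor.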

How the data were processed

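Per the submitters' processing notes, reads were processed with STAR 2.6.1a, featureCounts and DESeq2 1.18.1 on mm10, and per the labels' protocols libraries came from ribosome-depleted RNA with 8 PCR cycles. Per the file headers, each gene has a deposited signal (baseMean, the mean of counts over size factors, called the mean normalized count), a log2 fold change with its SE, a Wald score, and a p-value with its adjusted value. The model formula was not given in the sources used here. Depth per library was not used, because the 4 columns per library match no sample label. Recomputed here with numpy 2.4.6 and pandas 2.3.3, the score equalled fold change over SE and the adjusted p a Benjamini-Hochberg adjustment over 29383 genes. Symbols, positions and lengths come from GENCODE M21 on mm10, matched for all 55450 genes. The trend was a weighted least squares fit (weights of 1 over the squared SE) on splines with 5 knots of GC content and log2 exon length, over genes with means from 10 up, tested on simulated data. Copies were searched with BLAST 2.17.0. Members, classes and lists were chosen with earlier results of these data known, and members and list genes named outside the rule that follows were picked after their values were seen. The named members were both partners at each catalytic site, the caps, inhibitor and chaperones, the tissue-restricted genes, and the ends of each class by Wald statistic and of all members by level, with the ends of each list. Paaf1 of the accessory list was not analysed here, and some list genes are not reported here. The level per kilobase of principal transcript was added after the exon lengths had been seen. Per the labels' design text, the cultures of a group came from separate mice.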

Additional observations from a re-analysis of the deposited data

How the results depend on the processing

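No proteasome gene passed at a deposited adjusted p below 0.1, at an unadjusted p below 0.05, or with the adjustment made over genes with means from 10 up, from 50 up, or over protein-coding genes (0 of 50 each). The smallest unadjusted p of a member (Wald test) was 0.223, so no choice of adjustment could have brought a member below these thresholds. The medians over all members and over each class moved by less than the median SE of their genes under the alternatives run. That SE is a wide bound, since it is that of single genes and exceeded each of these medians in size. With the trend removed, the median of the inducible beta genes turned from 0.015 to -0.015, while the other class medians kept their sign. That of the alpha ring went from -0.050 to -0.014. The share of positive members ran from 39.6% to 48%. A minimum mean of 50 kept the same 48 members, whose lowest mean was 85.2, and no minimum added only Psma8 and Psmb11. Those settings could hardly move a value, so the trend removal and, over all members, the minimum of 1000 were the alternatives that could. For 49 named genes, 88 of 96 single-gene values kept their sign. That count pools 2 alternatives of unlike weight. Subtraction of the median of all genes can turn only values between 0 and 0.0017, so most of its signs were fixed in advance. The signs that turned belonged to values smaller than their SE, as deposited up to 0.0479 for Psmb5 and -0.0624 for Uba6. After removal of the GC and length trend, Psmb5 was at -0.0246, Psmb7 at 0.0361, Psmb9 at -0.015, Psmc3 at -0.0347, Psmg2 at -0.0149 and Uba6 at 0.0038. With the median of all genes (0.0017) subtracted, Psme4 was at -0.00012 and Psmg2 at -0.0013. The cause was not tested. The level ratio of Psmb10 to Psmb7 was 0.529 per kilobase of principal transcript, against 1.20 per exon kilobase, with the first scale chosen after seeing the data, while the orders of Psmb8 to Psmb5, Psmb9 to Psmb6 and Psme2 to Psme1 held. No paired analysis was possible because no library's column bears a sample label, and for the same reason edgeR and DESeq2 refits, other scalings and omission of a culture were not run. The deposited SEs set what was detectable.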
